A study of Homo sapiens with 6 samples.

Results

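Amino acid transporter genes were described by RNA-seq in MDA-MB-231, a cultured human line from a triple-negative breast cancer that looks mesenchymal. The genes were taken by symbol from 7 solute carrier (SLC) families, SLC1A, SLC3A, SLC6A, SLC7A, SLC36A, SLC38A and SLC43A, leaving out pseudogenes. There were 45 such genes of 31835 listed. The families are defined by sequence and not by cargo, so the set also holds carriers of taurine, creatine, betaine, monoamines and purine nucleobases. Of the 6 libraries, 3 were of vector cells and 3 of cells made to overexpress ADAMTS1, a secreted metalloprotease, and the comparison asked which transporter genes differ between them. All 6 came from the same parental line, and the labels name no treatment, time point or clone. Neither the form of the construct nor whether its expression was stable is given in these sources. Separate cultures within a group are not stated in the labels, and p-values therefore reflect only the scatter of these libraries, which may be technical.

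Cells take up amino acids through carriers that either move them together with sodium or protons or exchange one amino acid for another. The SLC1A, SLC6A and SLC38A carriers are mostly driven by ion gradients, whereas many SLC7A carriers are exchangers, and the SLC7A light chains reach the cell surface only when joined to a heavy chain of the SLC3A family. In tumour cells the best known members are SLC1A5 (ASCT2), a neutral amino acid exchanger that carries glutamine, SLC7A5 (LAT1), the exchanger that brings in leucine and other large neutral amino acids, and SLC7A11 (xCT), which imports cystine for glutathione in exchange for glutamate. Several of these genes are known targets of ATF4, the transcription factor of the amino acid response, of NRF2, the regulator of antioxidant genes, or of MYC.

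Sequence near the start sites of these genes is shown because promoters of amino acid transporter genes are known to hold elements of the amino acid response. RefSeq promoter windows (GRCh38.p14, from 250 bases before to 50 bases after an annotated start) were matched by symbol for 36 of the 45 genes, and 17 of the 21 genes abundant enough to test had 29 such windows. Each window was searched on both strands for TGATGNAA, the composite element that ATF4 binds with C/EBP proteins, for TGACNNNGC, the core of the antioxidant response element bound by NRF2, and for CACGTG, the E-box that MYC binds. No matches of different motifs overlapped in the 58 windows of the family genes, counted as 0 overlapping pairs. TGATGNAA occurred in 6 of the 58 windows (10.3%), against 3.62% of the 35116 windows of all genes. Of the 6, 5 were among the 29 windows of tested genes (17.2%), and the other was in SLC1A3, which was too low to test. The 5 stretches of 30 bases that hold it in tested genes are printed on the strand of the gene, with the match in capitals; those of SLC1A4 and SLC3A2 lie on the opposite strand and so read as the reverse complement.
SLC1A4 (chr2:64989381-64989410, plus strand): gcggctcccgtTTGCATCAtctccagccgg
SLC1A5 (chr19:46784893-46784922, minus strand): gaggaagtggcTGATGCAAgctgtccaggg
SLC3A2 (chr11:62881719-62881748, plus strand): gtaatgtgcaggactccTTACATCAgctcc
SLC7A1 (chr13:29595663-29595692, minus strand): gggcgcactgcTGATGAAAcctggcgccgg
SLC38A1 (chr12:46266502-46266531, minus strand): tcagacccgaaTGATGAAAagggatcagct
These 5 genes have between 1 and 3 annotated windows each, and the one of SLC1A4 shown is the downstream of its 2 starts. The stretches of SLC1A5, SLC3A2 and SLC38A1 also lie inside the genes, downstream of the listed gene starts at 46788594, 62856004 and 46270017. Only that of SLC7A1 spans its listed gene start, 29595688. TGACNNNGC was found in 7 of the 58 windows (12.1%), near the 13.3% of all windows, and in 5 of the 29 of tested genes (17.2%). CACGTG was found in 10 of the 58 (17.2%) and in 5 of the 29 (17.2%), against 7.26% of all windows. For all 3 motifs the windows of all genes include genes too low to test. No share was taken over windows of tested genes alone, so the 29 have no like background. SLC7A5, the most abundant gene of the set, has 1 window, which held an E-box and an antioxidant element core (both in capitals) and had no TGATGNAA.
SLC7A5 (chr16:87869458-87869757, minus strand): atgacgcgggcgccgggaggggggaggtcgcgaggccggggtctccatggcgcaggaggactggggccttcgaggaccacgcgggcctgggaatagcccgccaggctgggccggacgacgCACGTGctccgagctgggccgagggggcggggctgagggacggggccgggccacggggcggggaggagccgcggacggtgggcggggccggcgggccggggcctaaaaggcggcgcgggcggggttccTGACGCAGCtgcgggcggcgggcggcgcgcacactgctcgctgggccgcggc
A match describes the letters of a window and does not show that a factor was bound there.

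Values are FPKM, which counts sequenced fragments relative to transcript length and to the size of the library, and these allow levels to be compared between genes. The absolute depth is unknown. From the steps between low FPKM values, the depth of the libraries relative to the first vector library was 1.17 and 1.26 for vector replicates 2 and 3, and 1.41, 1.04 and 1.43 for ADAMTS1 replicates 1 to 3. Each is the commonest ratio between libraries, held by 691 to 846 of the 5427 to 5772 genes compared, and is approximate. The overexpressed gene, ADAMTS1, was at 6.56, 6.72 and 6.99 FPKM with the vector and at 499, 462 and 501 FPKM with ADAMTS1, as all 6 labels say. Mesenchymal markers of the line were all present (6 of 6 at a mean of at least 1 FPKM, with a sum of 805 to 841 FPKM in the vector libraries and 819 to 842 FPKM in the ADAMTS1 libraries). Of the 7 luminal markers, 3 had a mean of at least 1 FPKM, namely KRT8 at 61.8, EPCAM at 3.01 and FOXA1 at 1.19 FPKM. The others, ESR1, PGR, GATA3 and CDH1, were below 1 FPKM. The luminal sum was 64.8 to 68.9 FPKM in the vector libraries and 64.3 to 67.8 FPKM in the ADAMTS1 libraries. Haematopoietic, endothelial and fibroblast markers summed to at most 0.524, 0.861 and 1.54 FPKM in any library.

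A small number of carriers made up most of the transporter RNA of these cells. SLC7A5 alone held 24.5% of the summed FPKM of the 45 genes and SLC1A5 another 18.9%. With SLC3A2, SLC38A1, SLC7A1, SLC38A2, SLC6A6, SLC43A3 and SLC7A11 they made 9 genes at a mean of at least 10 FPKM, which together held 89.5%. A mean of at least 1 FPKM was reached by 21 of the 45 (46.7%), against 37.4% of all genes listed, and 18 had a mean under 0.1 FPKM. SLC7A5 ranked at place 204 of the 31835 genes by mean FPKM, SLC1A5 at 302 and SLC3A2 at 827. In this order of levels the neighbours SLC3A2 and SLC38A1 had ranges over the 6 libraries of 47.3 to 48.3 and 43.1 to 46.4 FPKM that did not overlap, whereas SLC38A1 overlapped with SLC7A1, the next in order, and SLC7A1 with SLC38A2.

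**Figure D1:**
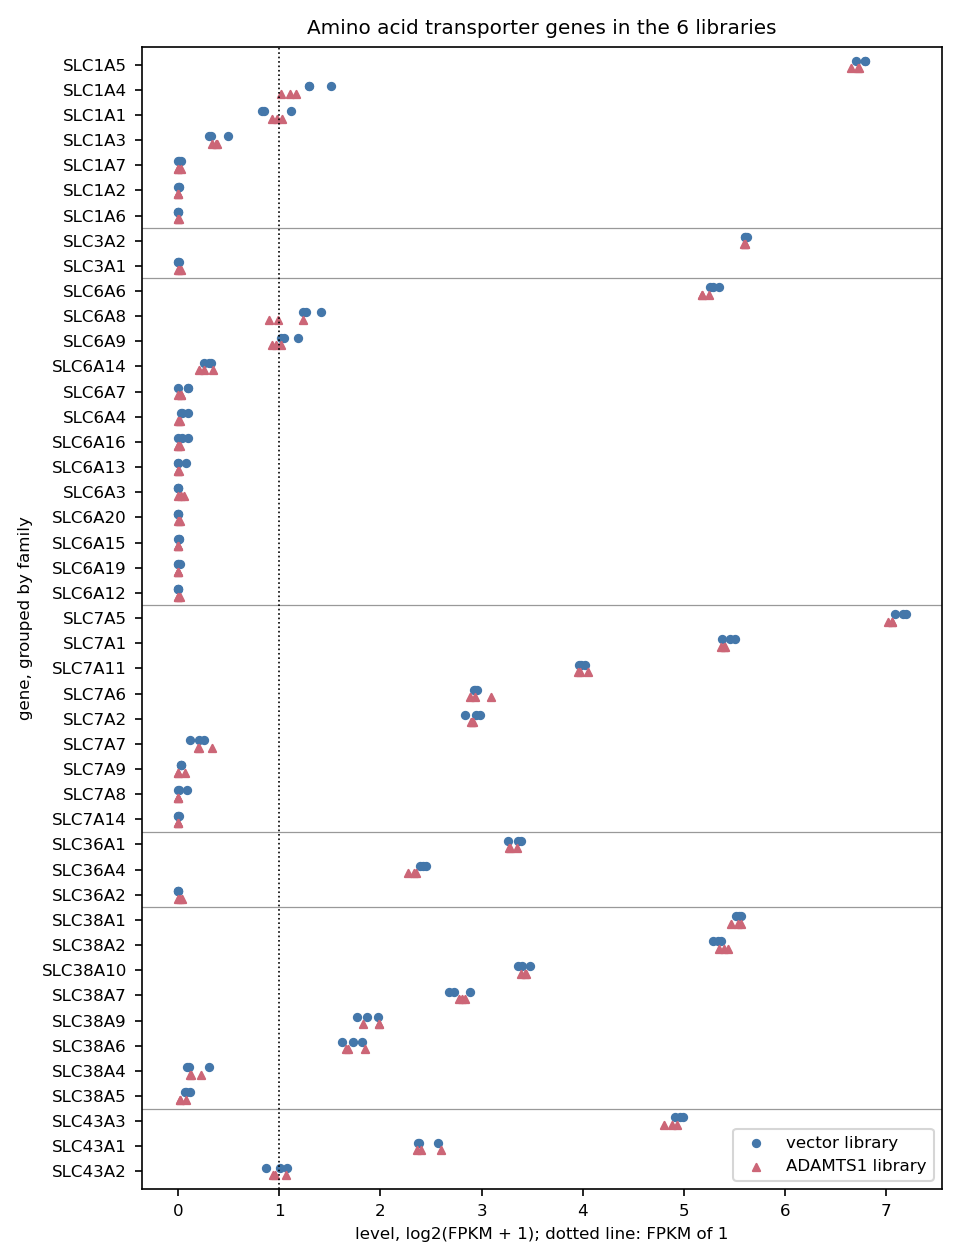
Level of each of the 45 genes on the log2(FPKM + 1) axis, grouped by family; each point is 1 library, with circles for the vector and triangles for ADAMTS1, and the dotted line marks 1 FPKM. SLC7A5 and SLC1A5 stand highest, 24 genes have a mean below the line, and the points of both groups lie close together for almost every gene.

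The levels differed little between vector and ADAMTS1 libraries. The 21 genes with a mean of at least 1 FPKM were tested with limma on log2(FPKM + 1) within a fit of all 11897 such genes, and 0 of the 21 passed an adjusted p of 0.05, where 8 of all tested genes did (0.0672%). At an unadjusted limma p under 0.05 there were 4 of the 21, SLC7A5, SLC1A4, SLC6A6 and SLC6A8, all lower with ADAMTS1, against 12.2% of all tested genes in either direction and 6.78% lower and 5.42% higher. In 6 of the 21 the libraries of both groups did not overlap, again each lower with ADAMTS1 (background 10.6% lower, 8.15% higher). A negative change was seen in 13 and a positive one in 8; the share of negative changes among all tested genes was 53.5%. The median change of the 21 was −0.021 on the log2 scale, against −0.0078 for all tested genes. The 95% intervals of the changes of all 21 stayed within 1.5-fold, up or down, on the log2(FPKM + 1) scale. So did those of 11186 of all 11897 tested genes, so this is not particular to the transporters. Because 1 is added before the logarithm, intervals of genes near 1 FPKM are narrower than those of their FPKM ratios. With 0.1 added instead, the change was −0.44 for SLC1A4 and −0.45 for SLC6A8, against −0.27 for each with 1 added. For such genes the 1.5-fold bound therefore does not hold for the FPKM ratio. The count of 4 (19.0%) became 1 without ADAMTS1 replicate 3 (4.76%, against 10.8% of all tested genes in that fit). It became 2 without vector replicate 1 (9.52% against 10.4%) or vector replicate 2 (9.09% against 10.5%), so in these 3 fits the share was below that of all genes.

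**Figure D2:**
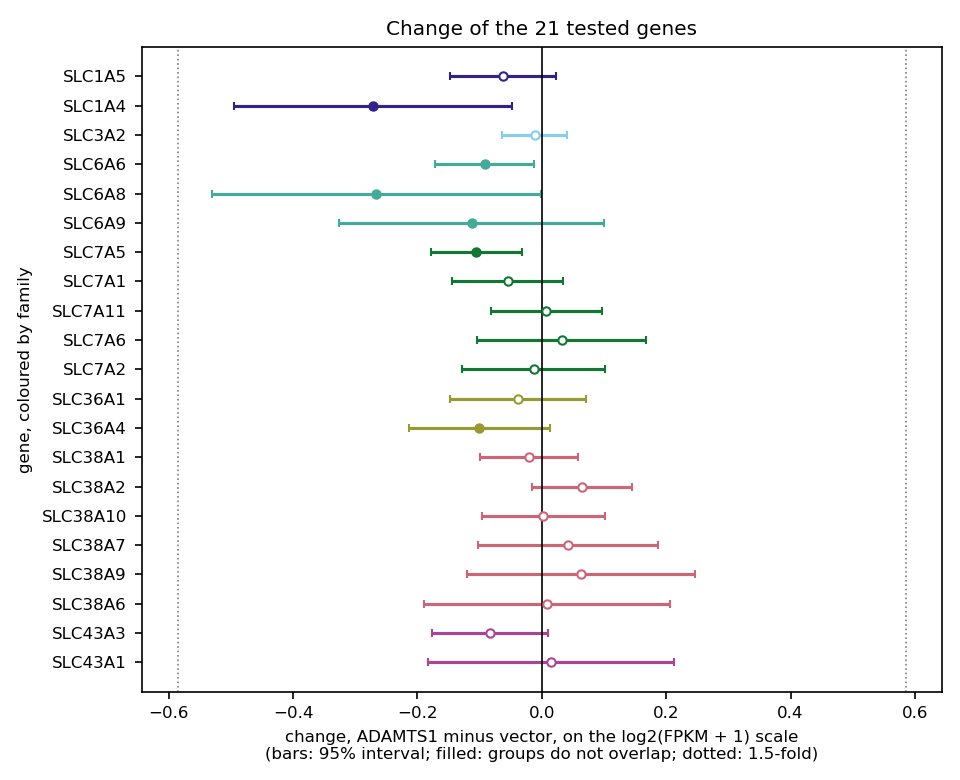
Change of each of the 21 tested genes, with ADAMTS1 relative to vector on the log2(FPKM + 1) scale, with its 95% interval, coloured by family; filled points mark genes whose groups do not overlap and dotted lines mark 1.5-fold. Every interval lies between the dotted lines, and the 6 filled points are all to the left of 0. The added 1 narrows the intervals of genes near 1 FPKM. Intervals within 1.5-fold were also found for 11186 of all 11897 tested genes.

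**Figure D3:**
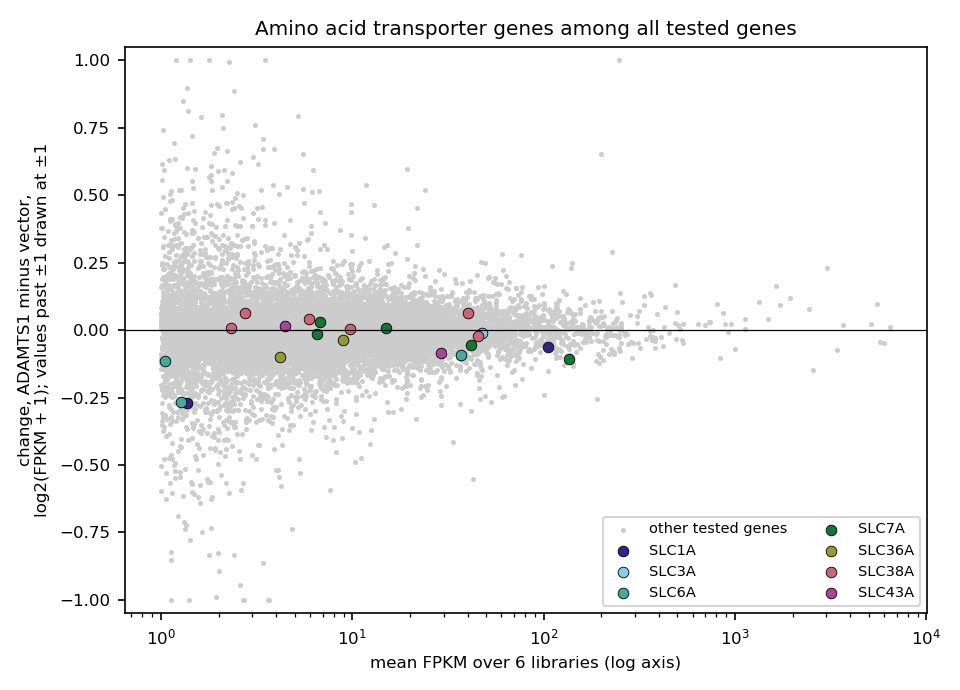
Change of each tested gene on the log2(FPKM + 1) scale against its mean FPKM on a log axis, with the transporter genes coloured by family and all other tested genes in grey. The transporter genes, which run from −0.27 to 0.064, lie within the grey cloud at their level of expression.

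Among the glutamate and neutral amino acid carriers of the SLC1A family, SLC1A5 (ENSG00000105281, hg38 chromosome 19, 46774883 to 46788594, minus strand) was at 109.9, 109.9 and 103 FPKM with the vector and at 99.3, 105 and 104 FPKM with ADAMTS1. The groups overlapped, and the change was −0.062 ± 0.036 (SE; limma adjusted p = 0.537). SLC1A4 (ASCT1), which exchanges alanine, serine, cysteine and threonine (ENSG00000115902, chromosome 2, 64988477 to 65023865, plus strand), was at 1.86, 1.46 and 1.46 FPKM and at 1.24, 1.15 and 1.03 FPKM. All 3 ADAMTS1 libraries were below the lowest vector library, and the mean went from 1.59 ± 0.234 to 1.14 ± 0.107 FPKM (SD, 3 libraries each), a ratio of 0.718. Its change of −0.27 ± 0.095 had an unadjusted limma p of 0.0238 and an adjusted p of 0.336, and the former was under 0.05 in 10 of 12 alternatives. The whole of SLC1A4, 35389 bases, is overlapped on the opposite strand by LINC02245, a non-coding RNA at 0.0903 FPKM. SLC1A1, a neuronal and epithelial glutamate and cysteine carrier, was at 0.917 ± 0.218 and 0.972 ± 0.0657 FPKM and was too low to test. SLC1A3, the astrocyte glutamate carrier, was at 0.303 ± 0.0959 and 0.290 ± 0.0224 FPKM. The other members of the family, SLC1A2, SLC1A6 and SLC1A7, did not exceed 0.0232 FPKM in any library.

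SLC3A2, the heavy chain also known as CD98, had the smallest standard error of the 21 tested genes. It was at 48.3, 47.6 and 47.8 FPKM with the vector and 47.7, 47.5 and 47.3 FPKM with ADAMTS1 (ENSG00000168003, chromosome 11, 62856004 to 62888880, plus strand). The change was −0.012 ± 0.022, with a 95% interval of −0.064 to 0.041 (limma adjusted p = 0.872). The other heavy chain, SLC3A1, which pairs with SLC7A9 in kidney and intestine, was listed at 0 in 3 libraries and reached 0.0184 FPKM at most. SLC7A9 reached 0.0507 FPKM at most.

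SLC7A5, the main light chain of SLC3A2, had the lowest unadjusted p of the tested transporter genes (ENSG00000103257, chromosome 16, 87830023 to 87869507, minus strand). It was at 145, 143 and 135 FPKM with the vector and at 132, 132 and 129 FPKM with ADAMTS1. The groups did not overlap, though the third vector library lay much nearer to the ADAMTS1 libraries than the first vector library did. From 141 ± 5.12 to 131 ± 1.79 FPKM the ratio was 0.929. The change was −0.11 ± 0.031, with a 95% interval of −0.179 to −0.032, an unadjusted limma p of 0.0111 and an adjusted p of 0.275; it ranked at place 480 of the 11897 tested genes by p. The unadjusted p stayed under 0.05 in 13 of 13 alternatives (0.00236 to 0.0407), while the adjusted p was 0.192 to 0.544. Its window printed above has 1 of the E-box matches.

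Other light chains of SLC3A2 were at similar levels in both groups. SLC7A11, the cystine importer (ENSG00000151012, chromosome 4, 138164097 to 138242349, minus strand), was at 14.6, 14.8 and 15.3 FPKM and at 14.7, 15.6 and 14.5 FPKM. Its change was 0.0072 ± 0.038, with a 95% interval of −0.082 to 0.097 (limma adjusted p = 0.956). It shares 14081 bases with SLC7A11-AS1 on the opposite strand, which was at 0.191 FPKM. SLC7A6 (y+LAT2), which exports arginine in exchange for glutamine and sodium, was at 6.62, 6.74 and 6.66 FPKM and at 6.63, 6.42 and 7.53 FPKM, with the third ADAMTS1 library above all others. Its change was 0.032 ± 0.058 (limma adjusted p = 0.863). SLC7A6 shares 17321 bases with SLC7A6OS on the opposite strand, which was at 4.42 FPKM, and reads of the pair cannot be told apart without strand. SLC7A7 was at 0.145 ± 0.0569 and 0.188 ± 0.0667 FPKM, and SLC7A8 (LAT2) was above 0 in only 2 of 6 libraries, at 0.0628 and 0.00892 FPKM, both with the vector. Per length, the 5 listed light chains of SLC3A2 summed to 167, 164 and 157 FPKM with the vector and 154, 154 and 151 FPKM with ADAMTS1. SLC7A5 made up 86.0% to 87.1% of that sum with the vector and 85.2% to 86.0% with ADAMTS1. For each unit of SLC3A2 there were thus 3.45, 3.45 and 3.29 units of light chain RNA with the vector and 3.22, 3.24 and 3.20 with ADAMTS1, given as a description with no test.

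The cationic amino acid carriers of the SLC7A family need no heavy chain. SLC7A1 (CAT1), the housekeeping importer of arginine and lysine, was at 40.5, 44.5 and 43.02 FPKM and at 41.2, 40.2 and 41.5 FPKM. The groups overlapped through the first vector library, and the change was −0.055 ± 0.038 (limma adjusted p = 0.607). SLC7A2 (CAT2) was at 6.57 ± 0.402 and 6.50 ± 0.0495 FPKM. SLC7A14 had 1 value above 0, of 0.00475 FPKM.

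Of the SLC6A family, whose members use sodium and chloride and include the neurotransmitter carriers, 3 of 13 were abundant enough to test. All 3 had groups that did not overlap, each lower with ADAMTS1 (background 10.6% lower, 18.8% in either direction), though SLC6A9 only barely. SLC6A6, the taurine transporter (ENSG00000131389, chromosome 3, 14402576 to 14489349, plus strand), was at 39.6, 38.2 and 37.3 FPKM with the vector and at 37.1, 35.3 and 35.3 FPKM with ADAMTS1. The gap between the groups was narrow, between the third vector and the first ADAMTS1 library. Its change of −0.092 ± 0.034, a ratio of 0.937, had an unadjusted limma p of 0.0293 and an adjusted p of 0.353, and the former was under 0.05 in 8 of 13 alternatives. SLC6A8, the creatine transporter (ENSG00000130821, chromosome X, 153687926 to 153696588, plus strand), was at 1.66, 1.41 and 1.36 FPKM and at 0.860, 1.35 and 0.987 FPKM. The second ADAMTS1 library was almost level with the third vector library, and the other two were well below. At a ratio of 0.722 the change of −0.27 ± 0.11 had an unadjusted limma p of 0.0494 and an adjusted p of 0.407, and the former was under 0.05 in only 2 of 12 alternatives. SLC6A8 has near-identical copies elsewhere in the genome, so how its reads were divided is uncertain.

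SLC6A9, the glycine transporter GlyT1, was the least abundant of the tested transporter genes, at 1.03, 1.07 and 1.28 FPKM and at 1.03, 0.962 and 0.904 FPKM. Its groups were parted only by 1.028 against 1.027 FPKM, and the change was −0.11 ± 0.091 (limma adjusted p = 0.664). It overlaps 5029 bases of CCDC24 on the opposite strand, which was at 0.570 FPKM. The broad-range carrier SLC6A14 was at 0.227 ± 0.0303 and 0.209 ± 0.0577 FPKM. The other 9 members, among them the dopamine and serotonin transporter genes SLC6A3 and SLC6A4 and the kidney and intestine carrier SLC6A19, did not exceed 0.0734 FPKM in any library.

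**Figure D4:**
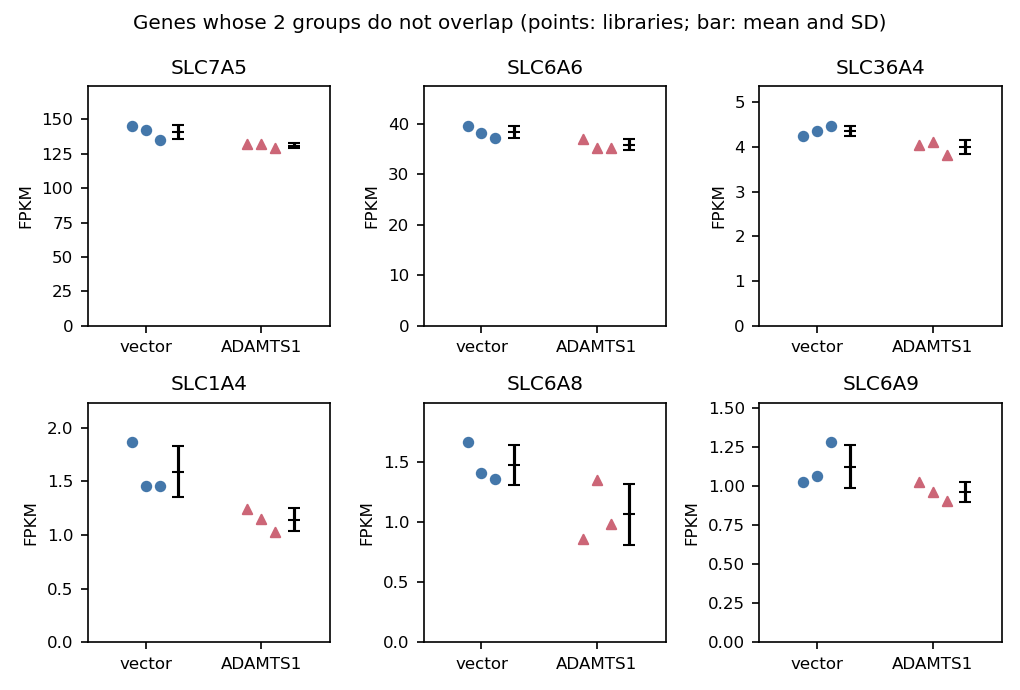
FPKM of the 6 tested genes whose groups do not overlap, with 1 point per library and the mean and SD of 3 libraries beside them; all axes start at 0. In SLC7A5, SLC6A6 and SLC36A4 the shift is small beside the level, and in SLC6A8 and SLC6A9 the nearest libraries of the groups almost touch.

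The carriers of the SLC36A family act largely at lysosomes and endosomes. SLC36A1 (PAT1) was at 8.60, 9.52 and 9.26 FPKM and at 8.66, 8.74 and 9.17 FPKM, with overlapping groups and a change of −0.038 ± 0.047 (limma adjusted p = 0.795). SLC36A4 (PAT4), a high-affinity carrier of proline and tryptophan (ENSG00000180773, chromosome 11, 93144174 to 93197991, minus strand), was at 4.24, 4.37 and 4.47 FPKM and at 4.05, 4.12 and 3.83 FPKM. All ADAMTS1 libraries were lower, the change was −0.10 ± 0.048, the unadjusted limma p was 0.0751 and the adjusted p 0.459. SLC36A2, the kidney carrier next to SLC36A1, was listed at 0 in all 3 vector libraries and reached 0.0309 FPKM with ADAMTS1.

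The sodium-coupled neutral amino acid transporters of the SLC38A family had 5 of 6 tested changes positive, against 46.5% of all tested genes, and 0 of 6 at an unadjusted limma p under 0.05, against 12.2%. The smallest of the 5, that of SLC38A10, turned negative in 4 of 13 alternatives, and that of SLC38A2 in 0 of 13. Whether those of SLC38A6, SLC38A7 and SLC38A9 kept their sign was not examined. SLC38A1 (SNAT1), a glutamine importer (ENSG00000111371, chromosome 12, 46183063 to 46270017, minus strand), was at 45.6, 46.4 and 44.9 FPKM and at 46.4, 43.1 and 45.4 FPKM, with a change of −0.021 ± 0.034 (limma adjusted p = 0.848). SLC38A2 (SNAT2), which is induced when amino acids run short (ENSG00000134294, chromosome 12, 46358188 to 46372773, minus strand), was at 39.5, 38.1 and 40.2 FPKM and at 41.0, 39.8 and 42.4 FPKM. The second ADAMTS1 library lay among the vector libraries and the other two above them. Its change of 0.064 ± 0.034 (95% interval −0.016 to 0.144, limma adjusted p = 0.503) was the highest of the 21.

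SLC38A1 and SLC38A2 lie on the same strand of chromosome 12 with 88170 bases between them, at means of 45.3 and 40.2 FPKM. SLC38A4, 391987 bases further on, was at 0.127 ± 0.0985 and 0.119 ± 0.0485 FPKM. SLC38A10 was at 9.67 ± 0.443 and 9.68 ± 0.197 FPKM (change 0.0027 ± 0.042, limma adjusted p = 0.985). The lysosomal carriers SLC38A7, which exports glutamine and asparagine, and SLC38A9, the arginine sensor that signals to mTORC1, were at 5.81 ± 0.524 and 6.004 ± 0.165 FPKM and at 2.67 ± 0.255 and 2.83 ± 0.240 FPKM. SLC38A6 was at 2.31 ± 0.232 and 2.33 ± 0.247 FPKM. SLC38A5 did not exceed 0.0868 FPKM.

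In the SLC43A family the amino acid carriers were the less abundant members. SLC43A3, which carries purine nucleobases (ENSG00000134802, chromosome 11, 57406954 to 57427580, minus strand), was at 30.8, 30.2 and 29.2 FPKM and at 27.0, 29.5 and 28.6 FPKM. The second ADAMTS1 library was above the third vector library, and the change was −0.084 ± 0.039 (limma adjusted p = 0.453). Its neighbour SLC43A1 (LAT3), 56953 bases away on the same strand, carries large neutral amino acids and was at 4.95, 4.20 and 4.18 FPKM and at 4.29, 5.06 and 4.15 FPKM. Its change was 0.015 ± 0.084 (limma adjusted p = 0.959). SLC43A2 (LAT4) was just below the 1 FPKM needed for testing, at 1.11, 0.832 and 1.01 FPKM and at 0.945, 1.10 and 0.915 FPKM, as SLC6A9 was just above it.

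Summed over each family, FPKM was 212 ± 4.18 and 201 ± 1.09 for SLC7A, 110.4 ± 4.26 and 105 ± 3.21 for SLC1A, and 106 ± 0.232 and 107 ± 2.83 for SLC38A. It was 47.9 ± 0.370 and 47.5 ± 0.218 for SLC3A, 41.3 ± 1.30 and 38.2 ± 0.873 for SLC6A, 35.5 ± 1.27 and 33.8 ± 1.71 for SLC43A, and 13.5 ± 0.566 and 12.9 ± 0.160 for SLC36A. The sums follow their most abundant members, SLC7A5 in SLC7A and SLC6A6 in SLC6A, and in both of these families the vector libraries were all above the ADAMTS1 libraries. The sum over all 45 genes was 573, 571 and 555 FPKM with the vector and 543, 547 and 546 FPKM with ADAMTS1, given as a description with no test.

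**Figure D5:**
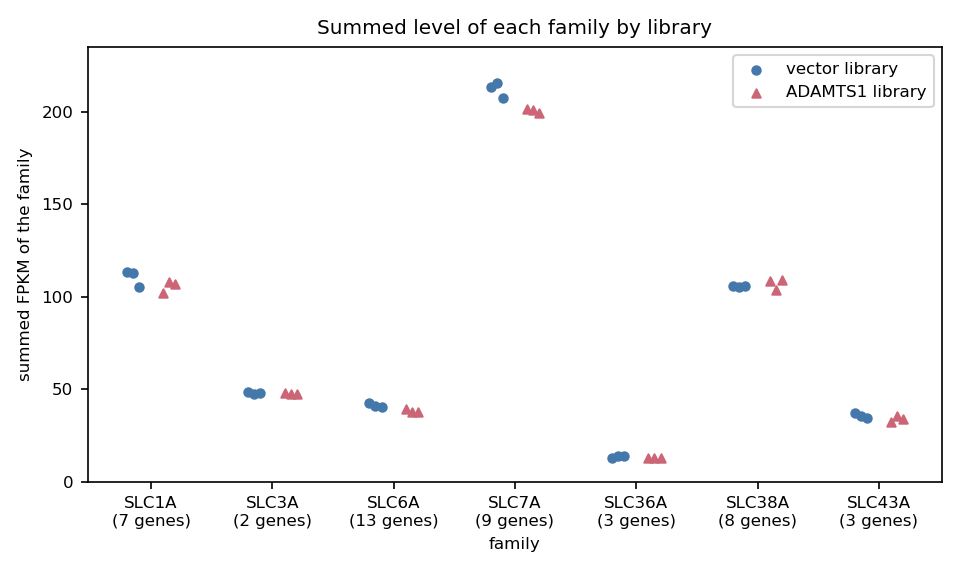
Summed FPKM of each family in each library, with circles for the vector and triangles for ADAMTS1 and an axis that starts at 0. The SLC7A sums are 207 to 215 with the vector and 199 to 201 with ADAMTS1, the SLC6A sums are also apart, and those of SLC1A, SLC38A and SLC43A overlap.

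Genes that act with these carriers were read from the same fit. Their counts were not repeated in the alternatives or with libraries left out. Of the GCN2 and ATF4 amino acid response, 0 of 20 tested genes passed the adjusted threshold; 7 were lower and 1 higher at an unadjusted limma p under 0.05 (40%, against 12.2% of all tested genes), and the median change was −0.015. ATF4 was at 133, 135 and 132 FPKM with the vector and at 121, 125 and 121 FPKM with ADAMTS1, with groups that did not overlap (change −0.13 ± 0.024, limma adjusted p = 0.155). DDIT4, a stress-induced inhibitor of mTORC1, had a change of −0.41 ± 0.093 (limma adjusted p = 0.195). It was at 44.2, 38.2 and 33.6 FPKM with the vector and at 28.8, 26.8 and 30.3 FPKM with ADAMTS1. SHMT2, the mitochondrial enzyme that splits serine to glycine, had a change of −0.13 ± 0.034 (limma adjusted p = 0.238). ATF5, a related factor, was the gene in the other direction, with 13.0, 13.7 and 13.8 FPKM against 15.3, 15.5 and 15.8 FPKM (change 0.19 ± 0.035, limma adjusted p = 0.149).

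Amino acid sensing by mTORC1 had 1 gene lower and 1 higher at an unadjusted limma p under 0.05 of 33 tested (6.06%, below the 12.2% of all tested genes), with a median of −0.0065. RPTOR, the mTORC1 subunit raptor, was at 15.4, 14.6 and 14.5 FPKM and at 12.9, 13.0 and 13.1 FPKM (change −0.18 ± 0.034, limma adjusted p = 0.155), and the Rag GTPase gene RRAGD had a change of 0.15 ± 0.058 (adjusted p = 0.384). Of the enzymes that use the transported amino acids, 3 were higher and 2 lower of 22 tested by the same unadjusted rule (22.7%, against 12.2% of all tested genes), with a median of 0.0023. GCLM, a subunit of the enzyme that starts glutathione synthesis from cysteine, had a change of 0.13 ± 0.034 (limma adjusted p = 0.244), and ASL, argininosuccinate lyase, one of −0.25 ± 0.093 (adjusted p = 0.352).

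Among amino acid and peptide transporters of other families, 1 of 12 tested genes was at an unadjusted limma p under 0.05 (8.33%, below the 12.2% of all tested genes; median −0.035). This was SFXN1, the mitochondrial serine carrier, with 30.7, 31.1 and 29.8 FPKM against 27.7, 29.2 and 28.9 FPKM (change −0.092 ± 0.032, adjusted p = 0.333). Of the described partners and regulators of the transporters, 1 was lower, ATF4, and 1 higher of 15 tested (13.3%, near the same 12.2%; median 0.0041). The higher one was NEDD4L, a ubiquitin ligase of membrane carriers, with a change of 0.089 ± 0.033 (limma adjusted p = 0.358). In none of the 5 lists did a gene pass the adjusted threshold (0 genes), and 0 of all 21 transporter genes passed it in any of the 13 alternatives tried.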

How the data were processed

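The authors deposited 1 table of FPKM per gene for the 6 libraries, 3 with the vector and 3 with ADAMTS1. FastQC, HISAT2 and StringTie are named with build hg38, per the submitters' processing notes; versions, annotation, strand and RNA selection are not given in the sources used here. FPKM is not a count, so no count test was used, and 1 gene's level is relative to the rest of its library. Of 32119 rows, 284 repeated a symbol and were dropped for the one with the highest mean, which left 31835 genes. The 11897 genes whose mean FPKM was 1 or more were fitted with limma 3.58.1 in R 4.3.3 (eBayes with trend) on log2(FPKM + 1), two-sided, with Benjamini-Hochberg adjustment over all tested genes and a threshold of 0.05. The fit was also run on simulated data with the same relative scatter at every level, unlike these data. No result here rests on that run. Plots and sums used Python 3.11.15, pandas 2.3.3 and Matplotlib 3.10.9. Genes named with values were those at an unadjusted p under 0.05, the 3 most abundant of each family, the SLC3A heavy chains with their light chains, and those next to the filter; others were added after their values were seen, and a few items are not reported here. The genes and lists were chosen with earlier results of these data known. Alternatives were another pseudocount, filter, scaling or moderation, a replicate block, and each library left out.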

Additional observations from a re-analysis of the deposited data

How the results depend on the processing

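No transporter gene passed the adjusted threshold under any of the 13 alternatives (0 genes; lowest limma adjusted p 0.192, SLC7A5 with the filter at a mean FPKM of 5). The 4 transporter genes at an unadjusted p under 0.05 became 2 with a mean FPKM of at least 5, a filter that leaves SLC1A4 and SLC6A8 untested (14.3%, near the 14.7% of all genes in that fit), and ranged from 1 to 5 with libraries left out in turn (4.76% to 23.8%, against 9.55% to 11.04% of all genes); the 5, without ADAMTS1 replicate 2, include 1 that was higher. The median change of the tested transporter genes, −0.021, was −0.0080 with no filter on low values and ranged from −0.052 to −0.016 with libraries left out. The 8 genes called over the whole table became 1 with no filter on low values, 31 with a mean FPKM of at least 5, 2 with eBayes without trend and 1 with a replicate block, and 1 to 5 with libraries left out. Titles share replicate numbers, but deviations of same-numbered libraries correlated at −0.0022, 0.018 and −0.093, so the block was not read as a pairing; with it 3 transporter genes had an unadjusted p under 0.05. Of the tested transporter genes named by the rule, the sign turned in leave-one-out fits only, for SLC7A11 (−0.022 to 0.027), SLC7A6 (−0.028 to 0.072), SLC38A1 (−0.043 to 0.0093), SLC38A10 (−0.024 to 0.035) and SLC43A1 (−0.057 to 0.080). The cause of these shifts was not tested. Scaling moved the median of all tested genes from −0.0078 to −0.0037 (upper quartile) or −0.00083 (median of ratios) on the log2 scale. The transporter median was then −0.016 or −0.013. In each of these fits 3 transporter genes had an unadjusted limma p under 0.05 (14.3%, against 12.1% and 12.3% of all tested genes). Unknown absolute depth limits the genes near or below 1 FPKM.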
